A study of Homo sapiens with 4 samples.

Results

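The genes described here build and run the actin cytoskeleton, together with the transcription factor SRF that controls many of them. They are 46 genes picked by symbol from a table of 20804, and all 46 were listed. RNA was sequenced in MDA-MB-231, an established cell line of triple-negative breast cancer (a tumour class without the oestrogen receptor, the progesterone receptor or amplified HER2). Wild-type cells (WT) gave 2 libraries, and cells whose genotype is labelled miR-3662-KO, for the microRNA miR-3662 (KO), gave 2 more. The labels name no treatment, time, clone or separate culture, and no method of knockout. The table holds no value for the microRNA, so it does not check the KO label. CRISPR interference and activation are named in the title of the series, and its design text tells of sorting by miR-3662 activity, so what KO stands for is uncertain and p-values measure only the spread between these samples.

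Actin filaments are polymers of globular actin. Profilin and the β-thymosins bind the monomers, formins and Ena/VASP proteins lengthen filaments, and cofilins, destrin and gelsolin cut or cap them. Crosslinkers such as α-actinin and filamin join filaments into networks, and tropomyosins with non-muscle myosin II make them contract. SRF reads this state: free actin monomers hold back its cofactors MKL1 and MKL2 (also called MRTF-A and MRTF-B), and when monomers are used up the cofactors enter the nucleus and SRF switches on cytoskeletal genes through a DNA element called the CArG box.

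The sequences shown are the promoter stretches that hold a CArG box in tested members, because this element is what SRF binds. The RefSeq promoter table (GRCh38.p14) covers 250 bases before to 50 bases after each annotated start and matched 42 of the 46 members. The CArG box consensus is its own reverse complement, so 1 search covers both strands. A full box was found in 7 of these 42 promoters (16.7%), against 1.29% of all 27305 promoters of that length and 1.04% of the 9400 of tested genes. The list was picked to hold SRF target genes, so this difference is not a result of these data. Each box of a tested member is shown in capitals in its flanks, 5′ to 3′ on the gene's strand.
SRF, chr6:43171229-43171258, plus strand: ctggggctcaCCATATAAGGagcggcctcg
SRF, chr6:43171249-43171268, plus strand: agcggcctcgCCATAAAAGG
ACTG1, chr17:81512874-81512903, minus strand: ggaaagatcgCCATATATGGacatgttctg
FLNA, chrX:154374709-154374738, minus strand: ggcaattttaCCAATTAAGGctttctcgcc
CNN2, chr19:1026509-1026538, plus strand: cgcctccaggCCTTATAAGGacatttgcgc
TPM4, chr19:16067355-16067384, plus strand: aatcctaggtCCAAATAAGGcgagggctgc
FHL2, chr2:105438595-105438624, minus strand: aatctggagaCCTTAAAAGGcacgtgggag
The boxes begin 94 bases before the start in ACTG1 and in FLNA, 89 in CNN2, 101 in FHL2, 173 in TPM4, and 30 and 10 in SRF itself. The seventh member with a box, ACTG2, was not tested because its level was near 0.

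Expression was given as FPKM, the fragments per length of transcript and per number of mapped fragments, which allows levels to be compared between genes. Tests were run with limma on log2(FPKM + 1) for every gene that reached 1 FPKM in 2 or more libraries, so fold changes of low genes are understated, and a gene passed at a Benjamini-Hochberg adjusted p under 0.05 over all 11786 tested genes. The filter kept 44 members, leaving out CNN1 and ACTG2. At least 1 FPKM was reached by 11283 to 11344 genes in WT and by 11720 to 11723 in KO. The 46 members made up 2.33% and 2.34% of the summed FPKM in WT and 2.23% and 2.09% in KO.

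Of the 44 tested members, 16 passed (36.4%), against 27.0% of all tested genes. The falls were 9 (20.5%, against 10.8% of all genes) and the rises 7 (15.9%, against 16.2%). With median-of-ratios scaling, 13 members fell (29.5%, against 12.7% of all genes) and 6 rose (13.6%, against 13.9%). The median log2 fold change was -0.06 over the members and 0.07 over all tested genes. The WT and KO values did not overlap in 31 members (70.5%, against 68.0% of tested genes). KO lay below WT in 20 of these (45.5% of the members, against 28.7%) and above it in 11 (25.0%, against 39.3%). Of the members that passed, FLNC, TAGLN and EZR moved by 1 or more on the log2 scale (3 members or 6.82%, against 4.63%). These counts describe the list, which was chosen with results of these libraries known, and show nothing particular to it. The counts by role below rest on few members each. They are to be read against the same 16.2% that rose and 10.8% that fell of all tested genes. Without the first WT library 8 members passed, 6 lower (13.6%, against 4.32% of all genes) and 2 higher (4.55%, against 7.58%).

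**Figure D1:**
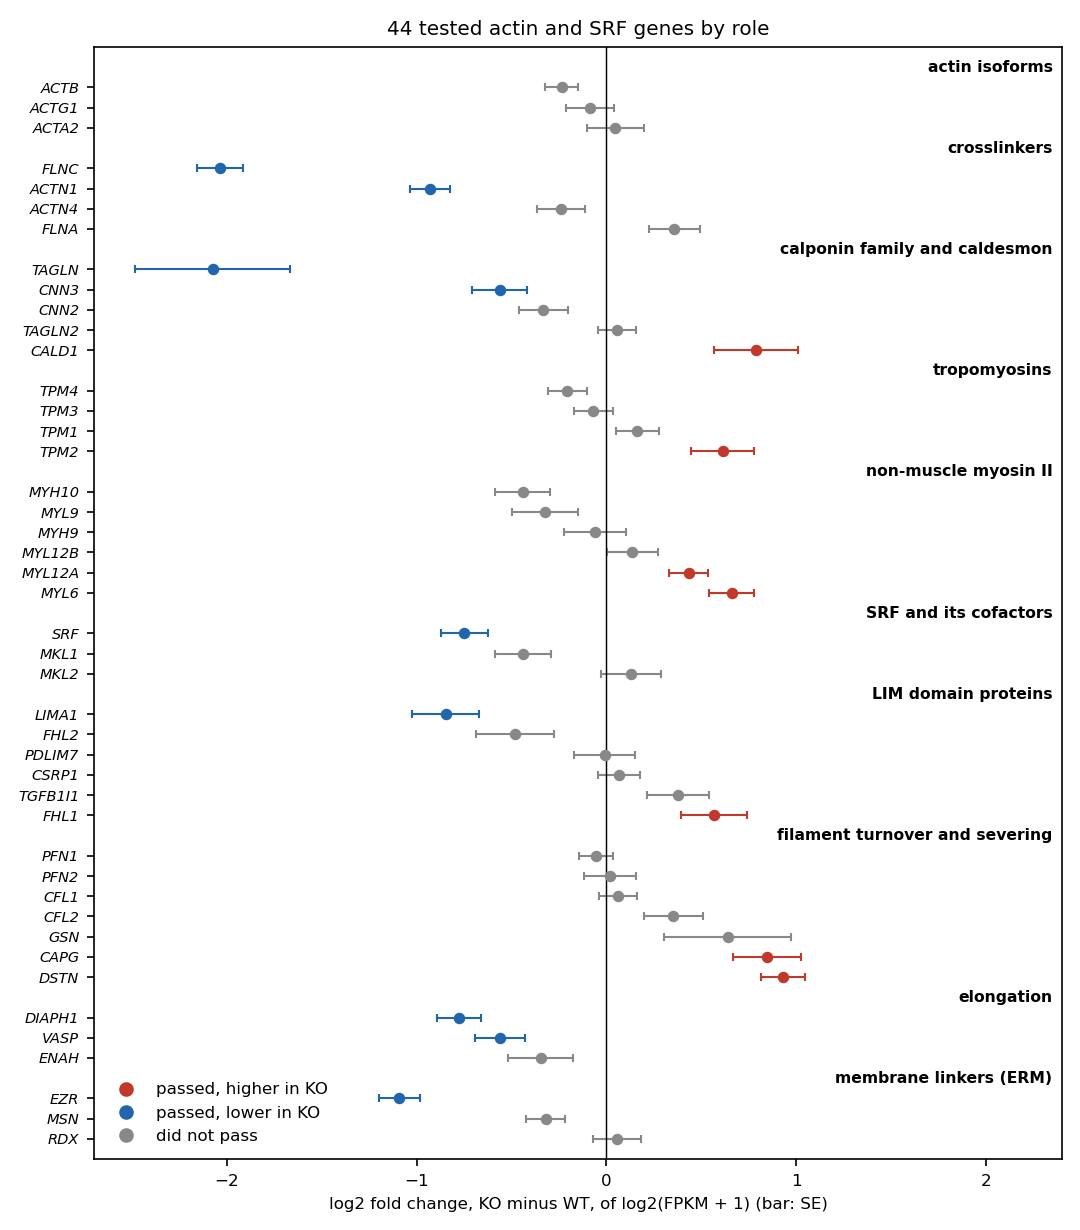
Log2 fold change, KO minus WT, of log2(FPKM + 1) for each of the 44 tested members by role, with the SE as a bar (2 libraries per group) and colours for members that passed higher, passed lower or did not pass. TAGLN and FLNC lie lowest at -2.07 and -2.03, and DSTN highest at 0.93.

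SRF and the machinery around it were examined first. SRF (gene identifier 6722) lies on the plus strand of chromosome 6 between 43171269 and 43181506 in GRCh38. Its level was 55.96 and 59.66 FPKM in WT and 36.15 and 31.96 FPKM in KO. Both KO values were below both WT values. SRF fell by 0.75 ± 0.12 (SE) on the log2 scale, to 0.589 times its WT level, with an adjusted p of 0.00621 in limma. Its cofactor gene MKL1 was at 7.24 FPKM in each WT library and at 5.39 and 4.77 FPKM in KO. The groups did not overlap for MKL1, but it did not pass (log2 fold change -0.44, adjusted p 0.0596). MKL1 passed after scaling (0.0473), without the mean-variance trend (0.0461) or with a crossed pairing of the libraries (0.0388). MKL2 was at 2.25 and 1.91 FPKM in WT and at 2.65 and 2.10 FPKM in KO, with overlapping groups (0.13, adjusted p 0.568). Of the 3 genes SRF alone passed. In bulk RNA, fewer cells of a type and less RNA per cell cannot be told apart.

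Of the 6 tested members with a CArG box in the promoter window, SRF fell and 5 did not pass, with a median log2 fold change of -0.27. Among the 38 other tested members 7 rose and 8 fell, with a median of 0.00. These include ACTB, TAGLN, MYL9 and PFN2, which were not matched in the promoter table and so were not searched for a box. Most members that passed therefore had no full box in this window or were not matched in the promoter table. Over all genes with a promoter in the table, a box was present in 13 of 1039 that fell (1.25%), 13 of 1460 that rose (0.89%) and 72 of 6901 that did not pass (1.04%). A match describes the letters only.

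The actin genes include the most abundant member. ACTB, the gene of cytoplasmic β-actin, ranked 5 among all listed genes. It was at 3517.58 and 3553.18 FPKM in WT and at 2963.24 and 3045.82 FPKM in KO. Both KO values were lower, but it did not pass (log2 fold change -0.23, adjusted p 0.0828) until the libraries were scaled (0.034). ACTG1, cytoplasmic γ-actin, was at 703.52 and 771.19 FPKM in WT and at 775.13 and 622.44 FPKM in KO, with overlapping groups. ACTB held 82.1% to 83.3% of the summed actin FPKM in WT and 79.2% to 83.0% in KO. The smooth muscle isoforms were scarce, ACTA2 at 1.37 to 1.76 FPKM over all 4 libraries and ACTG2 at 0.03 FPKM in the first KO library and listed at 0 in the others.

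Of the 4 crosslinkers 2 fell and 2 did not pass. FLNC, a filamin best known from muscle (gene identifier 2318), lies on the plus strand of chromosome 7 between 128830406 and 128859272 in GRCh38. It was at 61.54 and 60.88 FPKM in WT and at 14.70 and 13.70 FPKM in KO. The values within each group were close together and the groups far apart. FLNC fell by 2.03 ± 0.12 (SE) on the log2 scale, to 0.232 times its WT level (adjusted p 0.000314, limma). Its widely expressed relative FLNA was at 226.09 and 252.17 FPKM in WT and at 343.17 and 273.51 FPKM in KO. FLNA did not pass (0.36, adjusted p 0.0839), although it passed without the second KO library (0.0416) or with a crossed pairing of the libraries (0.0386). FLNC therefore made up 21.4% and 19.4% of the summed FPKM of these 2 filamins in WT and 4.11% and 4.77% in KO.

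ACTN1 (gene identifier 87), the α-actinin of stress fibres and focal adhesions, was at 227.47 and 228.06 FPKM in WT and at 124.78 and 113.49 FPKM in KO. It fell by 0.93 ± 0.11 (SE) on the log2 scale, to 0.523 times its WT level (adjusted p 0.00209, limma). ACTN4, the other non-muscle α-actinin, was at 275.17 and 283.49 FPKM in WT and at 263.79 and 212.54 FPKM in KO and did not pass (-0.24, adjusted p 0.193). The share of ACTN1 in their sum was 45.3% and 44.6% in WT and 32.1% and 34.8% in KO. With 2 libraries per group an exact permutation test of such a share cannot go below p = 0.333, so the shares are given as values.

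In the calponin family, small proteins that sit along actin filaments, TAGLN (transgelin or SM22α, a classical SRF target) was examined next. It was at 38.45 and 24.18 FPKM in WT and at 11.07 and 3.64 FPKM in KO. The groups did not overlap, but the libraries within each group differed widely. TAGLN fell by 2.07 ± 0.41 (SE) on the log2 scale, to 0.235 times its WT level (adjusted p 0.0114, limma), and did not pass without the first WT library (adjusted p 0.0567). The log2 fold change was -2.76 without the first KO library and -1.39 without the second. TAGLN2, its broadly expressed paralogue, stood at 468.52 and 490.57 FPKM in WT and at 521.49 and 475.87 FPKM in KO (log2 fold change 0.06, adjusted p 0.71). CNN3, the acidic calponin of non-muscle cells, was at 173.87 and 134.69 FPKM in WT and at 96.88 and 110.19 FPKM in KO. It fell by 0.56 on the log2 scale (adjusted p 0.0275). The call was lost without the first WT library (0.167), the first KO library (0.103) or the second KO library (0.0547). CNN2 did not pass (-0.33, adjusted p 0.0932), except with a crossed pairing of the libraries (0.0447). CNN1, the smooth muscle calponin, was at 0.02 to 0.10 FPKM.

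CALD1, the gene of caldesmon, which restrains myosin on actin, went the other way. It was at 9.65 and 5.74 FPKM in WT and at 12.77 and 14.58 FPKM in KO. CALD1 rose 1.78-fold (log2 fold change 0.79, adjusted p 0.0347). Without the second WT library the log2 fold change was 0.46 (adjusted p 0.137), and without the first or second KO library the adjusted p was 0.0853 and 0.164.

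**Figure D2:**
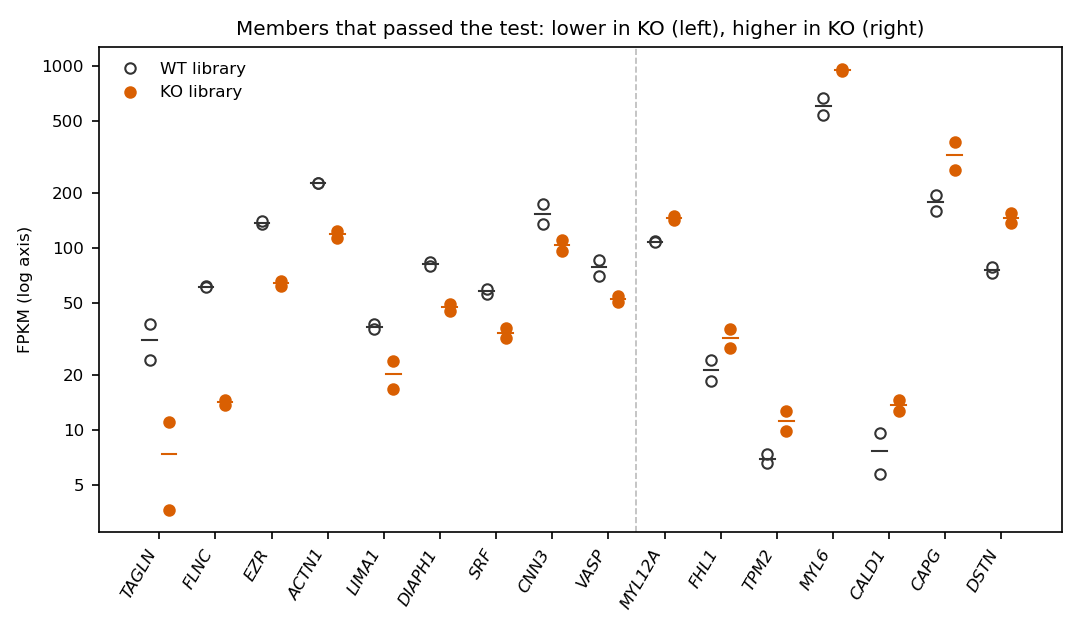
FPKM (log axis) of the 16 members that passed, with open circles for the 2 WT libraries, filled circles for the 2 KO libraries and lines for the group means. FLNC and ACTN1 show tight groups, while the KO values of TAGLN lie at 11.07 and 3.64 FPKM.

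Tropomyosins wind along the filament and decide which proteins may bind it. TPM2 was at 6.59 and 7.37 FPKM in WT and at 9.85 and 12.69 FPKM in KO. It rose by 0.61 on the log2 scale (adjusted p 0.0312), the least abundant of the family to start with. With a minimum of 0.1 FPKM TPM2 did not pass (0.0518). The call was lost when the first WT (0.126), second WT (0.0689) or second KO library (0.183) was left out. TPM1, TPM3 and TPM4 did not pass, with log2 fold changes of 0.16, -0.07 and -0.21 at group means from 76.0 to 247.9 FPKM. TPM3 held 45.2% to 45.5% of the summed tropomyosin FPKM in all 4 libraries, whereas TPM4 held 39.0% and 40.1% in WT and 36.3% and 35.8% in KO. The table gives 1 value per gene, so the many splice forms of TPM1 and TPM3, with 13 and 14 transcripts listed, cannot be separated.

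Non-muscle myosin II consists of heavy chains that move along actin, regulatory light chains whose phosphorylation turns the motor on, and an essential light chain. MYL6, the essential light chain, was at 540.29 and 666.55 FPKM in WT and at 936.03 and 961.21 FPKM in KO. It rose 1.57-fold (log2 fold change 0.66 ± 0.12 SE, adjusted p 0.00875, limma), and did not pass without the first WT library (0.061). MYL12A, a regulatory light chain, was at 108.65 and 108.08 FPKM in WT and at 150.78 and 142.54 FPKM in KO. It rose by 0.43 on the log2 scale (adjusted p 0.0215). It did not pass without the first WT (0.107), the second WT (0.11) or the first KO library (0.0653). Of the 50-base stretches of its transcript, 9.4% also occur in a transcript of another gene, most often MYL12B. Reads of MYL12A and MYL12B may therefore be split between them.

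MYL12B was at 493.55 and 454.13 FPKM in WT and at 459.44 and 589.42 FPKM in KO and did not pass (0.14, adjusted p 0.478). MYL9, the regulatory light chain that is an SRF target, was at 31.69 and 33.63 FPKM in WT and at 31.01 and 21.60 FPKM in KO. It did not pass (-0.32, adjusted p 0.203), though it did without the first KO library (0.0476). Neither heavy chain gene passed. MYH9 was at 113.41 and 121.42 FPKM in WT and at 133.53 and 95.07 FPKM in KO. MYH10 was at 15.04 and 12.99 FPKM against 10.29 and 9.77 FPKM, without overlap (-0.44, adjusted p 0.0553). MYH10 passed after scaling (0.0423), with a minimum of 5 FPKM (0.0457) or with a crossed pairing of the libraries (0.0365). The ratio of MYL6 to MYH9 in FPKM was 4.76 and 5.49 in WT and 7.01 and 10.1 in KO.

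LIM domain proteins couple actin to adhesions and to transcription. LIMA1, also called EPLIN, which stabilises filaments, was at 38.38 and 35.73 FPKM in WT and at 16.82 and 24.07 FPKM in KO. It fell by 0.85 ± 0.18 (SE) on the log2 scale (adjusted p 0.013, limma) and did not pass without the first WT library (0.0662). FHL1 was at 18.50 and 24.21 FPKM in WT and at 28.37 and 35.75 FPKM in KO. It rose by 0.57 on the log2 scale with an adjusted p of 0.0467. Of the members that passed, FHL1 was nearest to the threshold. The call was lost with a pseudocount of 0.1 (0.05), with a minimum of 0.1 FPKM (0.071), after scaling (0.0579), without the mean-variance trend (0.0562) or without the first WT (0.227), first KO (0.0525) or second KO library (0.22). Its relative FHL2, an SRF target that also binds SRF, was at 54.00 and 51.55 FPKM in WT and at 47.54 and 29.51 FPKM in KO. FHL2 did not pass (-0.48, adjusted p 0.117) except without the first KO library (0.0179). PDLIM7, CSRP1 and TGFB1I1 did not pass, with log2 fold changes of -0.01, 0.07 and 0.38.

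Of 7 genes of filament turnover 2 rose and 5 did not pass. DSTN, the gene of destrin, which takes filaments apart (gene identifier 11034), lies on the plus strand of chromosome 20 between 17570075 and 17609919 in GRCh38. It was at 72.85 and 79.10 FPKM in WT and at 154.88 and 136.66 FPKM in KO. The groups were well apart. DSTN rose 1.92-fold, by 0.93 ± 0.12 (SE) on the log2 scale (adjusted p 0.0029, limma). CFL1, the main cofilin of non-muscle cells, was at 1132.54 and 1165.12 FPKM in WT and at 1270.19 and 1129.57 FPKM in KO (0.06, adjusted p 0.68). CFL2 did not pass either (0.35, adjusted p 0.127), except without the first KO library (0.0456). DSTN made up 5.87% and 6.19% of the summed FPKM of these 3 genes in WT and 10.6% and 10.4% in KO.

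CAPG, which caps the fast-growing filament ends, was at 160.58 and 195.89 FPKM in WT and at 381.52 and 266.95 FPKM in KO. It rose 1.82-fold (log2 fold change 0.84 ± 0.18 SE, adjusted p 0.014, limma) and did not pass without the first WT library (0.0803). GSN, the gene of its relative gelsolin, was at 5.62 and 11.64 FPKM in WT and at 17.42 and 10 FPKM in KO. Its groups overlapped and it did not pass (0.64, adjusted p 0.186), although it did with the second WT library left out (0.0499) or with a crossed pairing of the libraries (0.00999). The profilin genes PFN1 and PFN2, whose proteins load monomers onto growing ends, had log2 fold changes of -0.06 and 0.02 and did not pass. PFN1 was at 1710 to 1819 FPKM over the 4 libraries.

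Of 3 genes of filament elongation 2 fell and 1 did not pass. DIAPH1 (gene identifier 1729), the formin mDia1, was at 83.33 and 80.04 FPKM in WT and at 49.57 and 44.94 FPKM in KO. It fell by 0.78 ± 0.12 (SE) on the log2 scale, to 0.579 times its WT level (adjusted p 0.00471, limma). VASP, which shields growing ends from capping, was at 70.62 and 86.11 FPKM in WT and at 54.78 and 50.40 FPKM in KO. It fell by 0.56 on the log2 scale (adjusted p 0.0207), and the call was lost without the second WT (0.133) or second KO library (0.0868). ENAH, the related Mena gene, was at 6.06 and 4.46 FPKM in WT and at 4.05 and 3.72 FPKM in KO, and did not pass (-0.35, adjusted p 0.17).

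The ERM proteins link actin to the plasma membrane. EZR, the gene of ezrin (gene identifier 7430), lies on the minus strand of chromosome 6 between 158765748 and 158819368 in GRCh38. It was at 135.49 and 139.87 FPKM in WT and at 66.25 and 61.94 FPKM in KO. As for FLNC, the values were tight within groups. EZR fell by 1.09 ± 0.11 (SE) on the log2 scale, to 0.466 times its WT level (adjusted p 0.00144, limma). MSN, moesin, was at 195.37 and 205.84 FPKM in WT and at 162.22 and 158.64 FPKM in KO. Its groups did not overlap, yet it passed only after scaling (0.0331) or with a crossed pairing of the libraries (0.0471), and not in the main test (-0.32, adjusted p 0.0522). RDX, radixin, was at 21.29 to 23.70 FPKM in all 4 libraries. The share of EZR in the ERM sum was 38.2% and 38.1% in WT and 26.3% and 25.4% in KO.

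**Figure D3:**
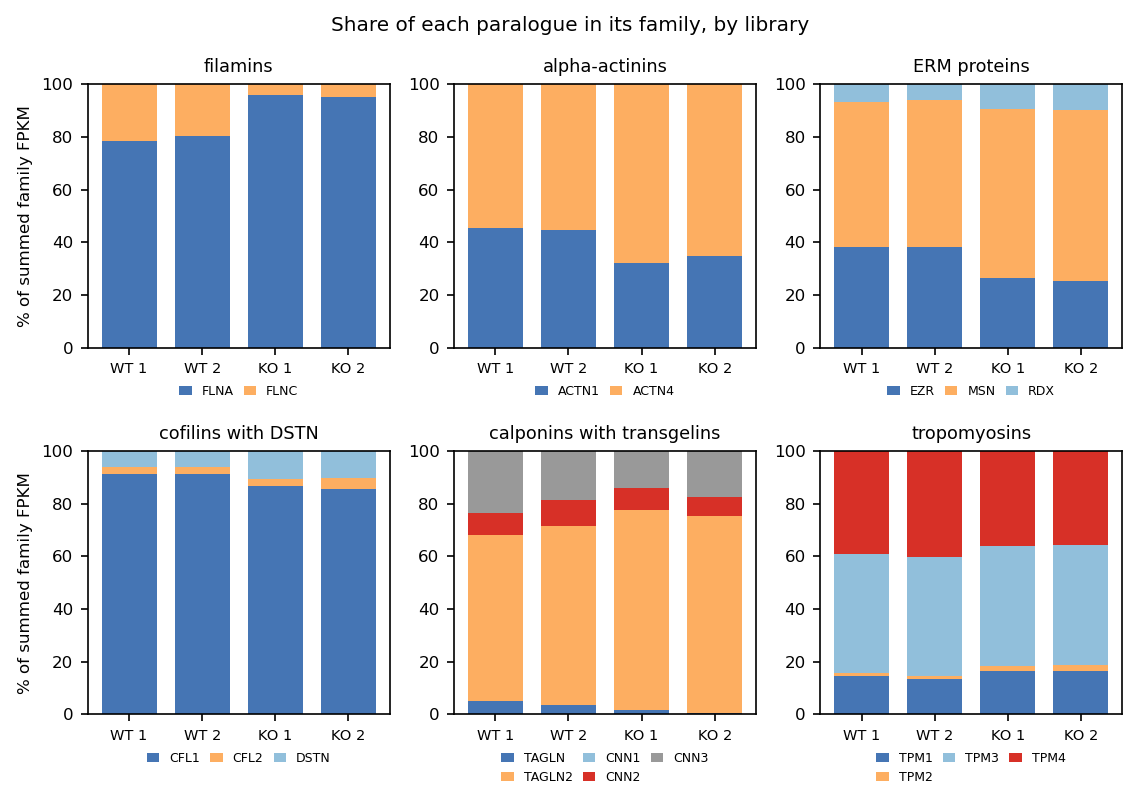
Percent of the summed FPKM of a family held by each paralogue, 1 bar per library, for 6 families. FLNC goes from 21.4% and 19.4% of the 2 filamins in WT to 4.11% and 4.77% in KO, while TPM3 stays between 45.2% and 45.5% of the tropomyosins.

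Other genes of the pathway were taken from 7 lists with 103 entries, of which 91 were tested. Of these 8 rose (8.79%, against 16.2% of all tested genes) and 10 fell (11.0%, against 10.8%), so the share that fell was near the background. The counts for single lists below rest on few genes each and are to be read against the same shares of all tested genes. Of 18 further targets of SRF with the MKL cofactors 2 passed higher and 4 lower. Their median log2 fold change was -0.18, against 0.07 over all tested genes. CTGF, the matricellular protein gene also controlled by YAP, was at 262.69 and 277.01 FPKM in WT and at 75.67 and 71.35 FPKM in KO. It fell by 1.86 on the log2 scale (adjusted p 0.00025). ZYX, the gene of the focal adhesion protein zyxin, fell by 1.05 (adjusted p 0.0020), and ITGA5 also fell (adjusted p 0.014). ITGA5 did not pass without the second WT (0.0707) or second KO library (0.075). SVIL, the gene of supervillin, rose by 0.73 (0.0203) and the integrin gene ITGB1 by 0.43 (0.0335). SVIL did not pass without the first WT or first KO library, and ITGB1 did not pass when any library was left out. With all 4 libraries ITGB1 also did not pass without the mean-variance trend (0.0601). Its log2 fold change ranged from 0.31 to 0.55 over the alternatives. VCL, the gene of vinculin and a much used SRF target, was at 59.47 and 61.85 FPKM in WT and at 68.28 and 53.82 FPKM in KO.

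Early response targets, which SRF controls with the ternary complex factors, contained 1 gene that passed among 7 tested of 11. IER2 was at 60.74 and 66.93 FPKM in WT and at 34.61 and 36.62 FPKM in KO and fell by 0.82 on the log2 scale (adjusted p 0.0043). EGR1, with 2 CArG boxes in its promoter window, was at 1.19 and 2.15 FPKM in WT and at 0.89 and 0.88 FPKM in KO and did not pass (-0.48, adjusted p 0.10). Of the muscle genes that SRF controls with myocardin, SMTN alone was tested. SMTN, the gene of smoothelin, was at 37.24 and 36.78 FPKM in WT and at 10 and 10.04 FPKM in KO. It fell by 1.79 on the log2 scale (adjusted p 0.000434), with hardly any spread within the groups. The other listed muscle genes, MYH11, DES, ACTA1, ACTC1, LMOD1 and SYNPO2, were below the filter.

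MYLK, the gene of myosin light chain kinase, which phosphorylates the regulatory light chains, was at 2.46 and 2.51 FPKM in WT and at 11.79 and 11.05 FPKM in KO. MYLK rose 4.60-fold, by 1.83 ± 0.14 (SE) on the log2 scale (adjusted p 0.000619). Its promoter window also holds a CArG box. Of 18 genes of the Arp2/3 complex and its activators 1 rose and 2 fell. ARPC5L, a subunit variant, was at 55.77 and 55.26 FPKM in WT and at 29.90 and 28.00 FPKM in KO and fell by 0.92 on the log2 scale (adjusted p 0.00295). WASF1 fell by 0.63 (0.0156) and NCKAP1, a subunit of the same WAVE complex, rose by 0.84 (0.0162). WASF1 passed without the second WT library but without no other library, and NCKAP1 did not pass without the second WT (0.0745) or second KO library (0.0884).

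Where DIAPH1 fell, 2 of the 8 other formin genes rose and 6 did not pass. FMNL2, which promotes filopodia and lamellipodia, was at 9.15 and 9.27 FPKM in WT and at 24.29 and 27.98 FPKM in KO. It rose 2.84-fold (log2 fold change 1.41, adjusted p 0.00138). FMNL1 rose by 0.59 (adjusted p 0.0447), which was 0.39 without the first KO library (0.179), and did not pass without the first WT library (0.224) or after scaling (0.0633). FMNL1 also did not pass with a minimum of 0.1 FPKM (0.0717) or without the mean-variance trend (0.0605). Whether DIAPH1 and the other formins differ in response was not tested.

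Of 17 tested genes of capping, bundling and monomer binding 2 rose and 2 fell. TMSB4X, the gene of thymosin β4, a main store-keeper of actin monomers, was at 947.40 and 1290.19 FPKM in WT and at 3790.53 and 3633.04 FPKM in KO. It rose 3.32-fold, by 1.75 ± 0.14 (SE) on the log2 scale (adjusted p 0.000794). The ratio of TMSB4X to ACTB, both in FPKM, was 0.269 and 0.363 in WT and 1.28 and 1.19 in KO. Its sister gene TMSB10 was at 1506 and 2004 FPKM in WT and at 2268 and 2187 FPKM in KO and did not pass (0.36, adjusted p 0.091). CORO1B rose by 0.47 (0.0174), while CORO1C fell by 0.44 (0.039) and EVL, of the Ena/VASP family, fell by 0.53 (0.0496). EVL and CORO1C did not pass when any library was left out, and CORO1B passed only when the library left out was the first KO library. With all 4 libraries EVL also did not pass with a pseudocount of 0.1 (0.0503), the replicate block (0.0716) or a minimum of 0.1 FPKM (0.0756). CORO1C did not pass without the mean-variance trend (0.0655) or with a minimum of 0.1 FPKM (0.0559).

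**Figure D4:**
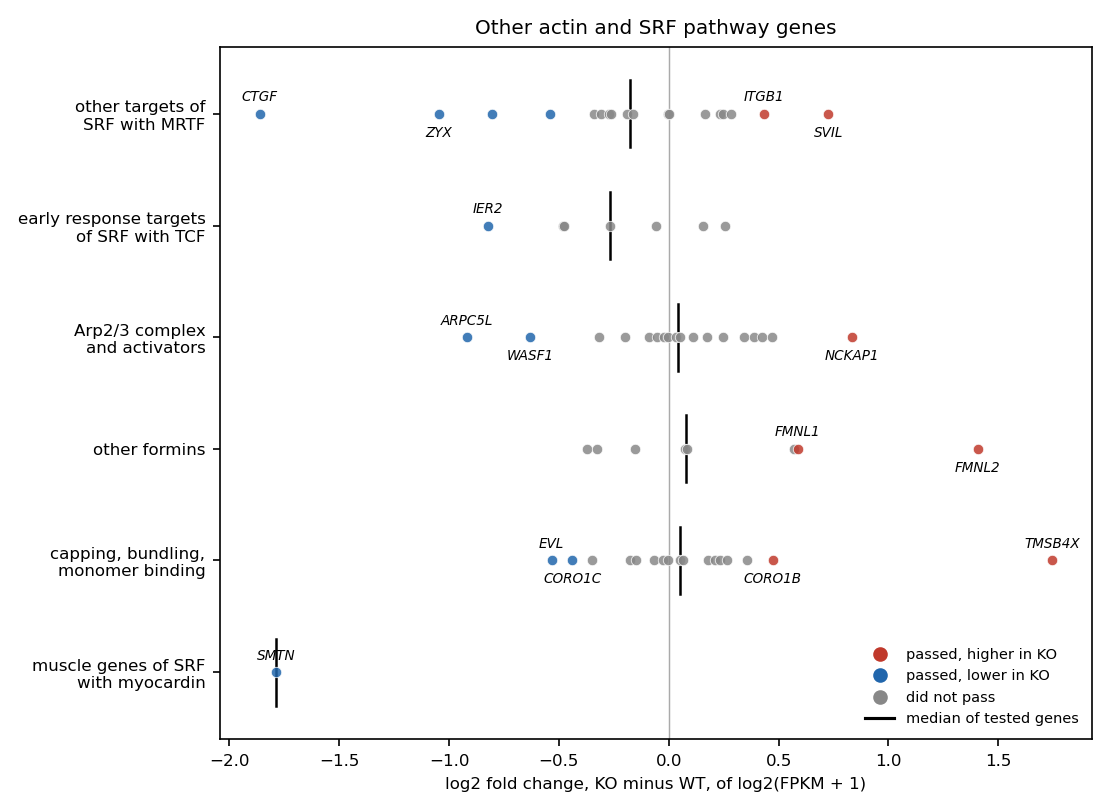
Log2 fold change, KO minus WT, of each tested gene in 6 of the other pathway lists, coloured by whether it passed, with a bar at the list's median and the names of up to 2 rises and 2 falls per list. CTGF and SMTN lie lowest at -1.86 and -1.79, and TMSB4X and FMNL2 highest at 1.75 and 1.41.

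Markers of the cells were checked because smooth muscle cells and fibroblasts also express TAGLN and ACTA2. VIM, CD44 and AXL, known from MDA-MB-231, were at 103.86 FPKM or more in every library, whereas SPARC was below 1 FPKM. The 5 fibroblast or smooth muscle markers listed summed to 1.37 and 1.91 FPKM in WT and to 1.11 and 1.62 FPKM in KO, with COL1A2 listed at 0 and MYH11 at 0.01 to 0.03 FPKM. Within this sum DES and COL1A1 went opposite ways. DES was at 0.21 and 0.36 FPKM in WT and at 0.70 and 1.27 FPKM in KO, and was below the filter. COL1A1 in this list was at 1.11 and 1.45 FPKM in WT and at 0.36 and 0.27 FPKM in KO. It was called lower (adjusted p 0.00915, limma), a call lost without the second KO library. Of 5 epithelial markers, ERBB2 was at 8.55 to 11.44 FPKM, and ESR1, CDH1 and KRT5 were at 0.03 FPKM or less. EPCAM was at 1.08 and 1.15 FPKM in WT and at 0.34 and 0.05 FPKM in KO. It was called lower (adjusted p 0.0103, limma), a call lost without the second KO library. COL1A1 and EPCAM reached 1 FPKM only in WT, so the filter admitted them through the group where they were high. Such a gene could hardly be called other than lower, and no conclusion is drawn from these 2 calls. Endothelial and blood markers summed to at most 0.67 and 0.25 FPKM. The part of these markers in the results was not tested.

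Several members have processed copies in the genome that may take or lend reads. In GENCODE 29, 20 pseudogenes are named after ACTG1, 11 after CNN2, and 10 each after ACTB and PFN1. Of the 50-base stretches in the longest coding transcript, 23.1% for TPM4, 10.3% for ACTB and 9.3% for TAGLN2 occur in a transcript of another gene. Among the members that passed, this share was 9.4% for MYL12A, 3.5% for FLNC, 3.0% for MYL6, 2.8% for DSTN and under 1% for each of the others.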

How the data were processed

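Expression was analysed in 4 libraries. The authors deposited 1 table of FPKM, 1 row a gene and 1 column a library, per the file headers. HISAT, StringTie, Cufflinks and GATK and the build hg38 are named in the submitters' processing notes, without roles or versions. The tool behind the values is not stated there. Read depth is unknown, so no counting error is given. Values were taken as log2(FPKM + 1) without scaling. Genes of at least 1 FPKM in 2 libraries were fitted in limma 3.58.1 under R 4.3.3, with its trend option, and p-values were adjusted over these genes by Benjamini-Hochberg. All adjusted p are from limma.

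The members and lists were chosen with earlier results of these data known. By the naming rule, each library's value is given for members that passed, for SRF, MKL1 and MKL2 and for members under the filter, and up to 2 rises and 2 falls by size are named per list. ITGA5, COL1A1, EPCAM, VCL, EGR1, TMSB10, the library values of DES and further members' library values were added after seeing the data. CTGF and MKL1 are named as in the table. MYOCD, DCN, LUM, PGR and HBB were not analysed here. Some genes and 1 of the lists are not reported here. Positions are from RefSeq (GRCh38.p14). Promoters were searched with Python 3.11.15 and pandas 2.3.3.

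Alternatives were a pseudocount of 0.1, no filter, a minimum of 5 FPKM, median-of-ratios scaling, no trend, the replicate number as a block and each library left out. A minimum of 0.1 FPKM and a crossed block were chosen after seeing the data. The crossed block joined the first WT with the second KO library and the second WT with the first KO library. The labels do not give this pairing.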

Additional observations from a re-analysis of the deposited data

How the results depend on the processing

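Without any filter, limma called 0 of 20804 genes, 0 members and 0 genes of the other lists (0 higher and 0 lower members), with 5620, 18 and 29 at an unadjusted p under 0.05. With a minimum of 0.1 FPKM, added after seeing the data, 2929 genes and 13 members passed. Of these members 4 were higher (9.09% of those tested, against 11.8% of all genes) and 9 lower (20.5%, against 7.53%). Leaving out 1 library, where the lone library of a group is assumed to vary like the others, 1402 to 1902 genes passed in place of 3184, with 8 to 15 members in place of 16 (2 to 5 higher, 6 to 10 lower) and 10 to 15 genes of the other lists in place of 18. SRF, FLNC, ACTN1, EZR, DIAPH1 and DSTN passed in all alternatives but the unfiltered one.

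Members that did not pass and changed sign with 1 library left out ranged, in log2 fold change, from -0.06215 to 0.16 for ACTA2, -0.2425 to 0.0735 for ACTG1, -0.0107 to 0.12 for TAGLN2, -0.30 to 0.18 for MYH9, -0.04318 to 0.32 for MYL12B, -0.24 to 0.22 for PDLIM7, -0.0006758 to 0.13 for CSRP1, -0.02423 to 0.14 for CFL1, -0.15 to 0.18 for PFN2 and -0.01747 to 0.13 for RDX. PFN2 was at -0.03283 after scaling. The cause was not tested for these or for the unfiltered fit.

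The labels number the libraries, but nothing says that equal numbers share a culture, and the deviations of same-numbered libraries correlated at -0.177 across genes. With the replicate block 2864 genes, 16 members and 19 genes of the other lists passed. Of these members 7 were higher (15.9% of those tested, against 14.9% of all genes) and 9 lower (20.5%, against 9.40%). Of the genes of the other lists 10 were higher (11.0%, against the same 14.9%) and 9 lower (9.89%, against 9.40%). With the crossed pairing, added after seeing the data, 4170 genes and 22 members passed. Here 9 members were higher (20.5% of those tested, against 21.3% of all genes) and 13 lower (29.5%, against 14.0%). The labels give no basis for the crossed pairing, so no conclusion is drawn from genes that passed with it.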
